A study of Selaginella moellendorffii with 8 samples.

Results

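Whole microphylls, the leaves of the lycophyte Selaginella moellendorffii, were set against young shoot tips by RNA sequencing. The comparison uses the 4 leaf and shoot libraries of the 8 in the series, assigned by their organ labels. They were fitted alone because the rhizophore libraries have a wide spread, a reason taken from the data. The root and rhizophore libraries are used only to give levels beside them. The leaf libraries were made from microphylls 10 to 14 days old, and the shoot libraries from the most distal part of green shoots 10 to 20 days after they branched off the main axis, so organ and age cannot be told apart. No treatment was given and the labels name no genotype or strain; plants were propagated as stem cuttings, and each library pooled 40 pieces of tissue. Per the labels the shoots had already formed microphylls, so a shoot tip sample may hold young leaf tissue. Leaf and shoot had 2 libraries each, called biological repeats in the labels. Whether a repeat means other plants is not stated, so the spread behind each p-value may be partly technical.

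Microphylls are small leaves with a single unbranched vein that evolved in the lycophytes apart from the leaves of ferns and seed plants. They arise on the flanks of the shoot apex, where the meristem keeps dividing cells and produces stem, vascular tissue and new leaves. A mature microphyll is mainly a photosynthetic organ, and both it and the shoot tip are green. The shoot tip sample may thus hold a growing axis and leaf primordia, whereas the leaf sample was taken from whole microphylls.

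The measurement was a count of reads for each of 25004 gene models, called models here. The count table gives the models as numbers or names starting in Smoe, and 0 of the 25004 matched the RefSeq gene table used here, so no function, position or sequence could be given to any of them. The organ labels could for that reason not be checked against marker genes. Levels are given as CPM, counts scaled to the library's total. They are not divided by transcript length, so the level of a model is compared between libraries. Where models are ranked or classed by level, transcript length enters too.

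The leaf libraries held 2826533 and 16058139 counts and the shoot libraries 15161907 and 15305641. No count between 1 and 4 was listed, so a value of 0 may stand for up to 4 reads, and the smallest listed count of 5 corresponded to 1.77 CPM in leaf replicate 1 and 0.311 CPM in leaf replicate 2, against 0.330 and 0.327 CPM in the shoot libraries. Leaf replicate 1 thus had the lowest depth of the 4 and the highest floor. Over all 17122 models tested it also stood apart: the root mean square log2 difference, on the log2(CPM + 1) scale, was 0.68 between the leaf libraries, against 0.475 and 0.409 between leaf replicate 2 and the shoot libraries. Over the 8347 models with at least 10 CPM in 2 libraries the order turned, with 0.324 between the leaf libraries and 0.412 and 0.366 between leaf replicate 2 and shoot. Whether depth sets this distance was not tested. The replicates of an organ differed by more than sampling noise, with a chi-square per degree of freedom of 4.52 between the leaf libraries and 13.4 between the shoot libraries. That value grows with depth, so it does not rank the organs. Over the 8347 models the shoot libraries differed by 0.225, less than the 0.324 of the leaf libraries. All were used as separate replicates.

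Few models differed between leaf and shoot beyond the spread of the replicates, and where they did the leaf mostly had less. A model was called where its adjusted p was under 0.05 in edgeR's quasi-likelihood test on the 4 libraries, with Benjamini-Hochberg adjustment over the 17122 models tested. Of these, 126 were called (0.736%), 14 higher in leaf (0.0818%) and 112 lower (0.654%). The 14 models higher in leaf ranged over log2 fold changes, leaf over shoot, of 0.45 to 2.80, and the lower models ranged down to -8.79, leaving out 1 that was listed at 0 in both leaf libraries. Calls at 8-fold or more numbered 18, each lower in leaf. The lowest leaf mean among these was 0.28 CPM, under the 1.77 CPM floor of leaf replicate 1. That fold thus rests in part on a value listed at 0. In a fit kept to models above 0 in all 4 libraries, 8 of the 126 calls were not tested. In bulk tissue, fewer cells that contain an RNA and less of that RNA per cell cannot be told apart.

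The balance between the directions rested on how the libraries were scaled. TMM scaling, which sets the libraries to each other by the bulk of their models, gave factors of 1.08 and 1.05 for leaf and 0.938 and 0.935 for shoot. Scaled by library totals instead, an alternative added after the data were seen, 134 models were called, 59 higher in leaf and 75 lower, and the median over all models shifted by 0.19 on the log2 scale, to 0.17 with library totals against -0.01 with TMM. By plain CPM, 6545 models (38.2%) had both leaf libraries above both shoot libraries, and 1368 (7.99%) had both below. All 14 models higher in leaf were called under both scalings, as were 75 of the 112 lower ones. The count was 89 without leaf replicate 1, 234 without leaf replicate 2, and 145 and 131 without shoot replicate 1 or 2. Each of these fits leaves an organ with 1 library, which is assumed to vary like the pair of the other organ.

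**Figure D1:**
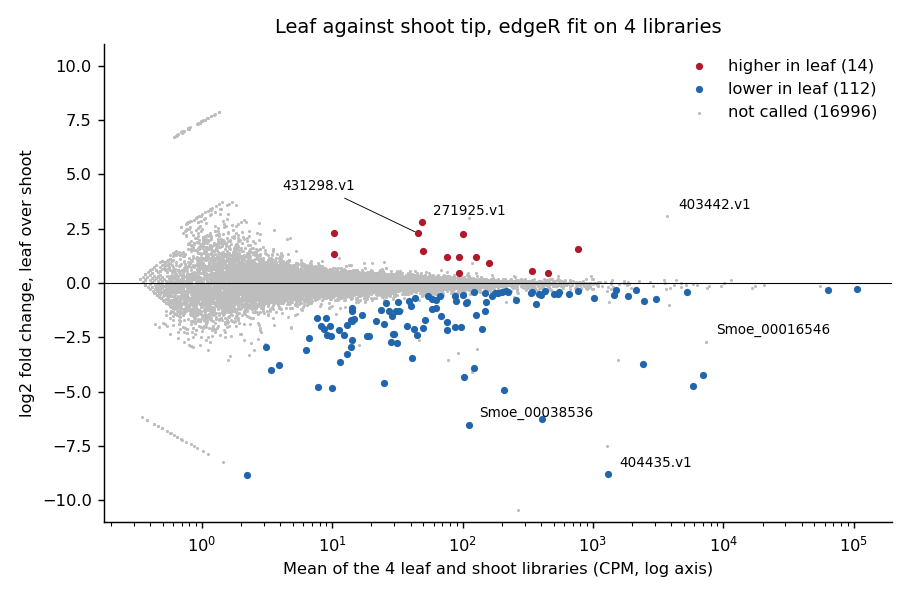
Log2 fold change, leaf over shoot, against the mean level over the 4 libraries in CPM (log axis), 1 point per model tested. The 14 models higher in leaf and the 112 lower ones are coloured, and the detached lines of grey points at low levels are models listed at 0 in both libraries of an organ, whose fitted fold depends on the prior count.

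The leading model lower in leaf was 404435.v1, the first of 68 models that passed the naming rule in that direction. It had 3.54 and 7.66 CPM in the leaf libraries (10 and 123 counts), against 2790.6 and 2462.7 CPM in the shoot libraries. The organs did not come near each other: the higher leaf value stayed far below the lower shoot value. The log2 fold change was -8.79 (SE 0.22, 95% interval -9.31 to -8.27, edgeR adjusted p = 1.1e-06), a level 442 times as high in shoot. It had 12.7 CPM in both root libraries and 8.84 and 7.40 CPM in the rhizophore libraries, so that leaf, root and rhizophore all lay close to the bottom of its range. The call ended in the fit with the replicate number as a block, at a log2 fold change of -8.75 (edgeR adjusted p = 0.25, with 0, below the smallest number stored, to 0.25 over all alternatives).

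The next, Smoe_00038536, had 1.77 and 2.93 CPM in leaf, against 169.37 and 270.42 CPM in shoot. Its value in leaf replicate 1 was 5 counts, the smallest the table lists. The log2 fold change was -6.51 (SE 0.32, 95% interval -7.25 to -5.76, edgeR adjusted p = 5.6e-05). Root stood between the organs at 29.5 and 30.6 CPM, and rhizophore at 14.1 and 9.0 CPM. The call ended without leaf replicate 2, at a log2 fold change of -7.16 (edgeR adjusted p = 0.0955; 3.02e-243 to 0.0955 over all alternatives).

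In the other direction the first of 12 models passing the rule was 271925.v1. It had 91.3 and 82.0 CPM in leaf, against 11.7 and 9.87 CPM in shoot, a log2 fold change of 2.80 (SE 0.14, 95% interval 2.50 to 3.11, edgeR adjusted p = 2.8e-07). Leaf was not its only site: root had 48.1 and 87.2 CPM, and the rhizophore libraries were split at 7.15 and 80.1 CPM. The second, 431298.v1, had 88.4 and 66.8 CPM in leaf, against 15.8 and 11.5 CPM in shoot, a log2 fold change of 2.29 (SE 0.17, 95% interval 1.91 to 2.67, edgeR adjusted p = 1.6e-05). Its root values of 106.95 and 74.1 CPM overlapped those of leaf, while rhizophore had 5.37 and 4.46 CPM. Both calls ended in a fit on all 8 libraries, at log2 fold changes of 2.73 and 2.23 (edgeR adjusted p = 1 for 271925.v1, where the alternatives spanned 1.02e-73 to 1, and 0.246 for 431298.v1, where they spanned 1.57e-48 to 0.246).

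**Figure D2:**
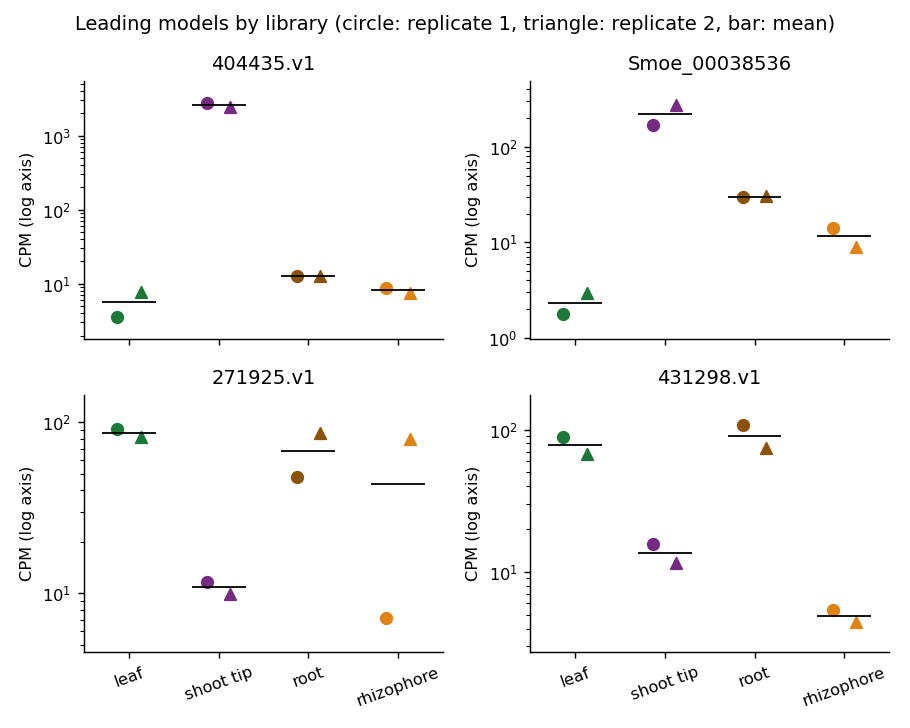
CPM (log axis, 1 panel per model) of the 4 models named by the rule, in leaf, shoot tip, root and rhizophore, with a circle for replicate 1, a triangle for replicate 2 and a bar at the mean. In the upper panels shoot stands alone, with 404435.v1 at 2790.6 and 2462.7 CPM. In the lower panels leaf exceeds shoot, and by CPM the root values overlap those of leaf.

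The authors' deposited table of normalized averages gave the same direction for these 4 models. Because the naming rule required no overlap between the organs, that direction was largely fixed beforehand. The authors' table also averages the same libraries, so it is no separate evidence. Its Leaf and Shoot averages were 8.31 and 4338.1 for 404435.v1 and 3.50 and 363.29 for Smoe_00038536, in the authors' normalized units. In the authors' deposited table the averages of 271925.v1 were 118.77 for Leaf and 17.8 for Shoot, and those of 431298.v1 were 105.75 and 22.5. The log2 ratios of those averages, leaf over shoot, were -9.03, -6.70, 2.73 and 2.23 in that order in the authors' deposited table. The Root averages there were 53.4 for 271925.v1 and 31.5 for 431298.v1, both below the Leaf averages. By CPM the root and leaf values of these models overlapped, so their order depends on the scaling.

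The losses in leaf were graded in size. Losses of 8-fold or more were found in 18 models, of 4- to 8-fold in 23, of 2- to 4-fold in 27 and of under 2-fold in 44. Among the 18 strongest, the median level was 4.12 CPM in leaf and 135 CPM in shoot. The medians of the 44 mildest were 205 CPM in leaf and 273 CPM in shoot. A mild loss was called only where levels were high: each of the 44 had at least 31.8 CPM in shoot. The gains were 4 models of 4- to 8-fold, with medians of 82.1 CPM in leaf and 12.2 CPM in shoot, 6 of 2- to 4-fold and 4 of under 2-fold. The 41 models lower by 4-fold or more took 0.190% and 0.220% of the counts in leaf, against 3.59% and 3.39% in shoot.

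In a single called model, lower in leaf, both leaf libraries were listed at 0. It had 4.09 and 4.83 CPM in shoot and was at least 4.29-fold higher there, against a floor of 5 counts per leaf library (edgeR adjusted p = 0.00513). Of the 25004 models, 104 were listed at 0 in both leaf libraries and above 0 in both shoot libraries, and their highest shoot mean was 4.46 CPM. The opposite pattern was found in 132 models, with a highest leaf mean of 2.79 CPM. Both patterns were thus limited to models under 10 CPM.

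The root and rhizophore libraries, which did not enter the fit, showed where the called models were otherwise found. The 41 models lower in leaf by 4-fold or more had median levels of 6.20 CPM in leaf, 48.2 CPM in shoot, 16.5 CPM in root and 7.38 CPM in rhizophore. In 26 of them both shoot libraries exceeded all 4 root and rhizophore libraries, a pattern seen in 5.96% of all models tested. The list was chosen for high shoot values, so that share describes it and tests nothing. In 28 of the 41, both leaf libraries lay below both root libraries (68.3%, against 68.1% of all models tested). The 14 models higher in leaf had medians of 125 CPM in leaf, 47.1 CPM in shoot, 62.5 CPM in root and 52.4 CPM in rhizophore. In 8 of those 14 both leaf libraries exceeded all root and rhizophore libraries, against 6.48% of all models tested, again in a list chosen for high leaf values. All these levels are scaled to library totals, which the stretches of rows described below fill unequally. Their part was 38.15% and 37.12% for leaf, 9.22% and 5.68% for root, and 0.377% and 0.0323% for rhizophore. That lowers the CPM of all other models in leaf and shoot. The order of leaf against root and rhizophore thus depends on the scaling and is not read as a biological level.

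**Figure D3:**
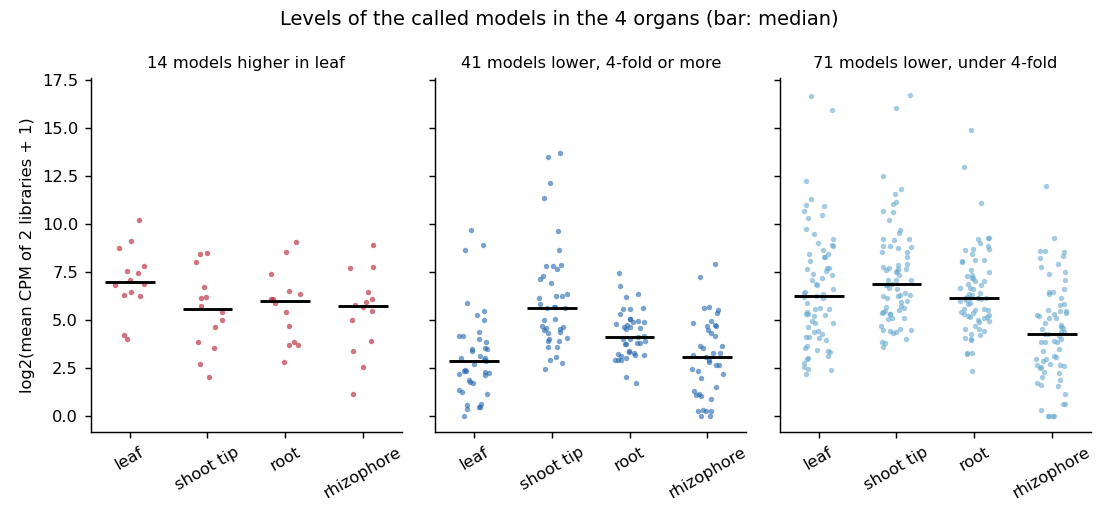
Mean level per organ, as log2(CPM + 1), of the 14 models higher in leaf, the 41 lower by 4-fold or more and the 71 lower by less, with a bar at each median. The models lower by 4-fold or more stand apart in shoot, at a median of 48.2 CPM, while their leaf and rhizophore medians are 6.20 and 7.38 CPM. Levels are scaled to library totals, and the order of leaf against root and rhizophore depends on that scaling.

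The losses of under 2-fold included a group of models that stood side by side in the deposited table. In 2 stretches of successive rows, 67 models in rows 7617 to 7683 and 27 in rows 24978 to 25004, every model had a mean over leaf and shoot more than 5 times its rhizophore mean; the next longest such run in the table had 6 rows. The stretches were defined after the data were seen, and whether row order follows the genome is not stated. Together these 94 models took 38.1% and 37.1% of the counts in the leaf libraries and 37.9% and 38.5% in the shoot libraries, so that the organs overlapped. They took 9.22% and 5.68% of root counts and 0.377% and 0.0323% of rhizophore counts. A low rhizophore share follows from the rule that defined the stretches. The 95% Wilson intervals of the share of the first stretch were 29.62 to 29.73% and 28.29 to 28.34% in leaf and 29.14 to 29.19% and 29.64 to 29.68% in shoot, and they cover counting error only.

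All 94 were tested, and 21 (22.3%) were called, each lower in leaf, against 0.654% lower among all models tested and 4.19% among those of 100 CPM or more. Both references include the models of the stretches themselves. All 21 were among the 44 models lower by under 2-fold. The called models of the first stretch had log2 fold changes of -0.83 to -0.26 and those of the second -0.57 to -0.30. The median over the 94 was -0.26, against -0.01 over all models tested. Scaled by library totals the median over the 94 was -0.07, against 0.17 over all models, and 5 were called lower and 1 higher. With the 2 stretches left out of the fit, 102 models were called, 13 higher and 89 lower, all of them among the 126.

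**Figure D4:**
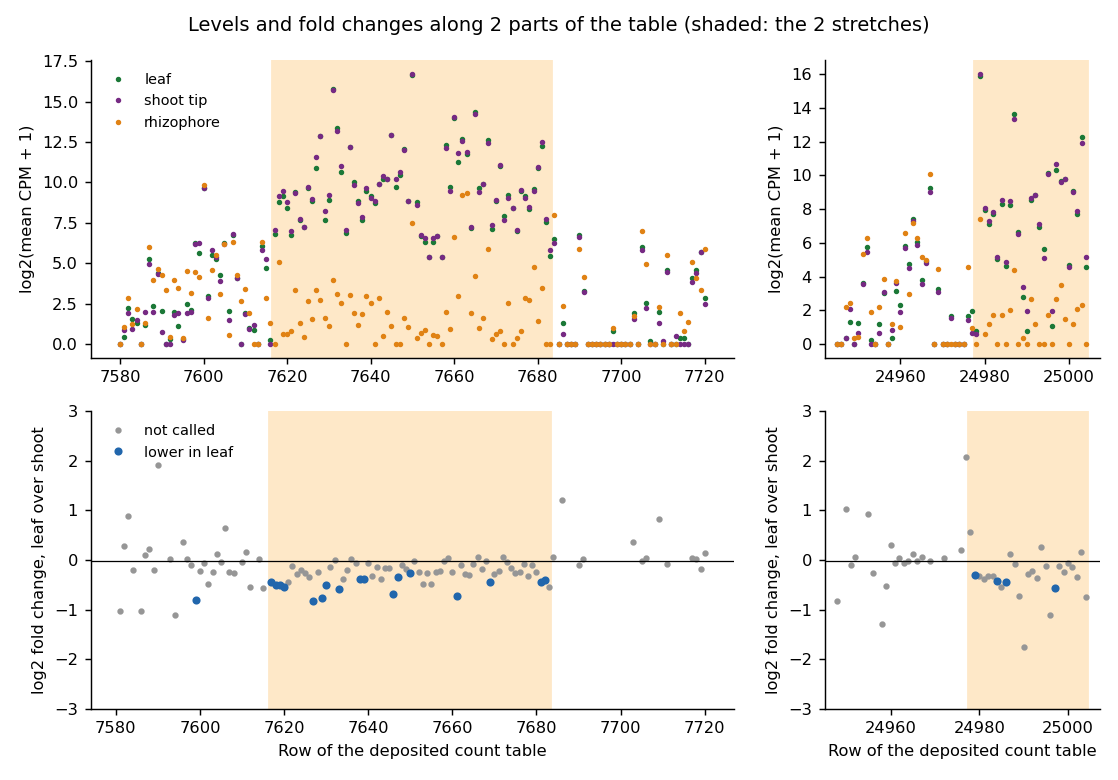
Mean level as log2(CPM + 1) in leaf, shoot tip and rhizophore (upper panels) and log2 fold change, leaf over shoot (lower panels), against row number around the 2 shaded stretches. Leaf and shoot points lie nearly on each other while rhizophore drops away, which the rule that defined the stretches required. The black line marks the median fold change of all models, -0.01.

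The models with the most counts were largely common to both organs. Of the 10 models with the highest mean CPM in leaf and the 10 in shoot, 6 were the same, and 5 of these lay in the stretches. The 6 had log2 fold changes of -0.30 to -0.07, and 2 were called lower in leaf, where 4.74% of all models of 100 CPM or more were called. The 4 found among the top 10 of shoot alone had log2 fold changes of -4.72 to -2.69, and 2 of them were called. The 2 not called, Smoe_00016546 and 96266.v1, had nearly the same values and may share reads, so they are not separate evidence. The 4 found among the top 10 of leaf alone differed little from shoot, at -0.16 to 0.13.

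The share of models called followed the level. Of the 1097 models with a mean of 100 CPM or more, 6 were called higher in leaf and 46 lower (4.74% in all). This class includes models of the stretches, where 22.3% were called. Of the 7073 models at 10 to 100 CPM, 8 were higher and 51 lower (0.834%), and of the 8952 tested models under 10 CPM 15 were called (0.168%), each lower in leaf. The median half-width of the 95% interval of the log2 fold change was 0.357 at 10 CPM or more and 1.11 below. At 10 CPM or more, the interval lay wholly within 2-fold for 7890 of 8170 models (96.6%), whereas below 10 CPM it did so for 2281 (25.5%). A difference of 2-fold or more thus lay outside the interval for most models of medium and high level, and inside it for most low ones. By name type, 23 of the 2639 tested models with Smoe names were called (0.872%) and 103 of the 14483 with numeric names (0.711%), both near the background.

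Replicates of an organ disagreed for a minority of models, and differently in leaf and shoot. Among 8577 models with a mean of 10 CPM or more in an organ, the leaf libraries differed by over 2-fold, on the log2(CPM + 1) scale, in 83 and the shoot libraries in 14. The leaf pair includes the library with 2826533 counts, and the part of depth in these differences was not tested. The median absolute log2 difference was 0.19 between the leaf libraries and 0.12 between the shoot libraries. The leaf differences went both ways, with 29 models higher in leaf replicate 1 and 54 higher in leaf replicate 2, and reached at most 3.74-fold. The shoot differences went nearly one way: 13 of the 14 were higher in shoot replicate 1, by up to 12.3-fold. In 12 of those 13, both shoot libraries still exceeded both leaf libraries, against 7.99% of all models tested, and 3 were called, against 0.736%. The models were chosen by the shoot values themselves, with replicate 1 over 2-fold above replicate 2, so nothing is read from these shares. Their median was 113 CPM in shoot replicate 1, 33.5 CPM in shoot replicate 2 and 12.0 CPM as a mean in leaf.

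Some large differences missed the threshold. With an estimate of 4-fold or more and no overlap between the organs by CPM, 139 models were lower in leaf, of which 41 were called, and 172 were higher, of which 4 were called. Most of the uncalled ones were weak: 87 of 98 lower and 166 of 168 higher models had means under 10 CPM in the higher organ. The 3 uncalled models with the highest means were picked after their values were seen. The model 403442.v1 had 5408 and 8051.7 CPM in leaf, against 572.49 and 812.18 CPM in shoot, at a log2 fold change of 3.10 (SE 0.40, 95% interval 1.58 to 4.61, edgeR adjusted p = 0.485). Its test had only 2.33 degrees of freedom. It passed without robust estimation of the spread (edgeR adjusted p = 1.73e-05), in DESeq2 (adjusted p = 8.32e-13), in limma-voom (adjusted p = 5.37e-20), and with the replicate block (edgeR adjusted p = 2.28e-149; 2.28e-149 to 0.794 over all alternatives). It also passed without leaf replicate 1, shoot replicate 1 or shoot replicate 2 (edgeR adjusted p = 0.0169, 7.73e-07 and 7.57e-08), with the spread taken from the organ that kept both libraries, and missed the threshold without leaf replicate 2 (edgeR adjusted p = 0.0776).

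The model Smoe_00016546 had 1464.7 and 2908.7 CPM in leaf, against 12370 and 12603 CPM in shoot, at a log2 fold change of -2.69 (SE 0.52, 95% interval -4.76 to -0.62, edgeR adjusted p = 0.776). Here the leaf libraries differed from each other while the shoot libraries did not. The call was made in DESeq2 (adjusted p = 9.96e-06), limma-voom (adjusted p = 8.09e-19) and the edgeR fit without robust estimation (adjusted p = 0.000205), with a span of 8.09e-19 to 1 over the alternatives. It was also made without leaf replicate 1 or leaf replicate 2 (edgeR adjusted p = 1.32e-06 and 1.97e-09), but these fits remove the difference between the leaf libraries and take the spread from shoot alone. The third, 96266.v1, stands 3 rows away in the table and had nearly the same values, 1456.9 and 2897.3 CPM in leaf and 12362 and 12594 CPM in shoot. Reads of these 2 models may be shared between them, so they are not counted as separate evidence.

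The number of calls moved with the libraries used, as the plot of calls by processing shows. Of the 126 calls, 72 were also made in each of the 4 fits that left out 1 library, 10 higher in leaf and 62 lower, each fit with the spread of the other organ alone. Of the 41 models lower by 4-fold or more, 32 were among them. Thinned to the depth of leaf replicate 1, all 4 libraries together gave 117 calls, 14 higher and 103 lower, and 104 of these were among the 126. At that depth the leaf libraries listed 15320 and 15293 models above 0 and the shoot libraries 14552 and 14710, against 15320 and 19749 in leaf and 17834 and 17914 in shoot as deposited. The thinning matched total counts only: the 10 models with the most counts still held 31.8% and 31.7% of counts in leaf and 33.2% in each shoot library.

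**Figure D5:**
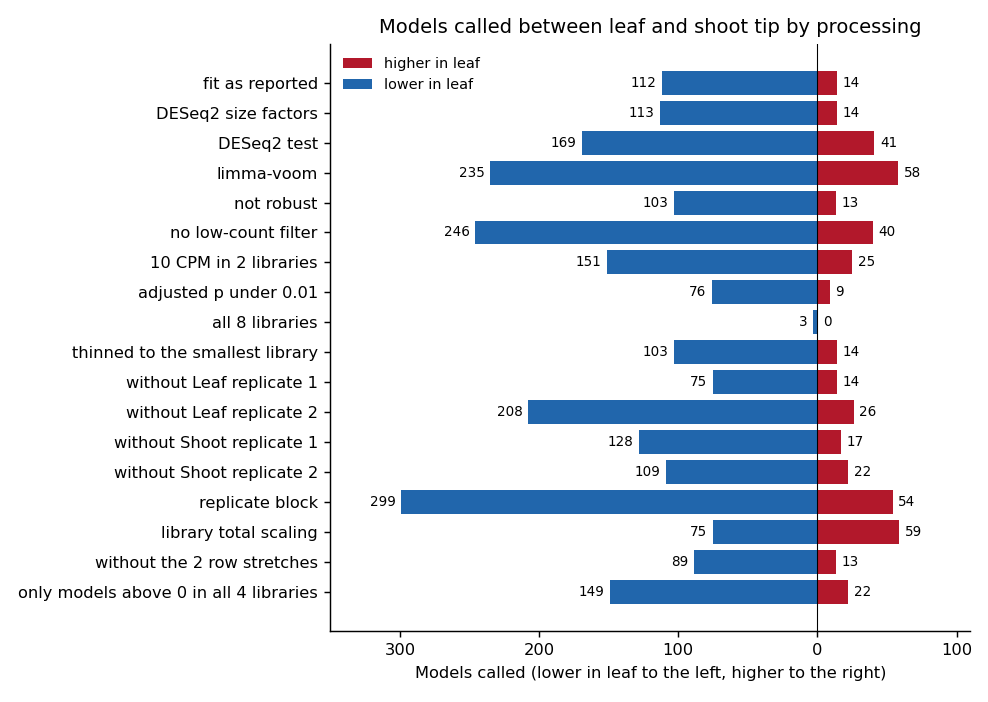
Number of models called higher in leaf (right) and lower in leaf (left) in the fit as reported and in each alternative. The fit as reported gives 14 and 112, scaling by library totals gives 59 and 75, and the fit on all 8 libraries gives 0 and 3.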

How the data were processed

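The authors deposited raw read counts per model and library, per the file headers, and a second table with a normalized signal averaged per organ by the authors, by a method the header does not state. Per the labels' protocols, a Nugen Ovation kit for small amounts of RNA gave the libraries, read as single 50 bp ends. Bowtie2, a read aligner, and edgeR are named in the submitters' processing notes without version; the sources used here give no build, annotation, counting tool or rule for multiply matching reads.

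The 4 leaf and shoot libraries alone entered a test of the counts in edgeR 4.0.16 under R 4.3.3 (filterByExpr, which removed 7882 of 25004 models, TMM, robust glmQLFit, glmQLFTest, a term for organ). A fit on all 8 libraries is an alternative. The SE is the absolute log2 fold change over the root of F, and intervals use the test's degrees of freedom. DESeq2 1.42.0, limma 3.58.1 and the other alternatives are in the closing section. The procedure was tested on counts simulated with a spread set by level alone. Models with an unusually wide spread of their own were not covered by that test. Named models passed the threshold, did not overlap between organs by CPM, averaged 50 CPM or more where they were higher and had the largest absolute fold change, 2 per direction. The 10 gene lists drawn up by product name matched no model. The comparison, rules and lists were chosen with earlier results of these data known. Counts without molecular identifiers are not independent molecules. With 393 models in 197 pairs of near-identical counts (within 0.1 log2 in all 8 libraries), reads may be split between copies; 1 of them was called.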

Additional observations from a re-analysis of the deposited data

How the results depend on the processing

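The total of 126 calls (14 higher in leaf, 112 lower) became 210 (41 and 169) with DESeq2's test and 293 (58 and 235) with limma-voom. It was 286 (40 and 246) without a filter on low counts and 3 (0 and 3) with all 8 libraries. With all 8, edgeR gave 727 of 23662 models at an unadjusted p under 0.05, against 981 of 17122 in the fit as reported. With no difference at all, a share of about 0.05 would be expected in each. Calls higher in leaf numbered 25 where the fit kept models of 10 CPM or more in 2 libraries, 9 at an adjusted p under 0.01, 59 scaled by library totals and 22 with only models above 0 in all 4 libraries, the last 2 added after the data were seen. Leaving out 1 library gave 89 to 234 calls, 14 to 26 higher and 75 to 208 lower. Leaf 1 and shoot 1 share only a number, and with the replicate block the count was 353 (54 and 299), 124 of them among the 126; deviations of same-numbered libraries correlated at 0.116 over 8577 models. No call shared with the 126 changed direction under any alternative. The 4 named models kept their direction in all 17 alternatives and lost the call in 1 each. The cause was not tested. The median half-width of the 95% interval of the log2 fold change was 1.11 under 10 CPM and 0.357 above, and the smallest listed count stood for 1.77 CPM in leaf replicate 1.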
